A study of Mus musculus with 6 samples.

Results

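The genes described here encode the 5 dopamine receptors (Drd1, Drd2, Drd3, Drd4 and Drd5), the 3 alpha1 adrenergic receptors (Adra1a, Adra1b and Adra1d) and 2 of the alpha2 adrenergic receptors (Adra2a and Adra2c) of the mouse. They were taken by gene symbol from read counts per gene and make up 10 of 32531 named genes. All 10 symbols were found as written. The libraries came from the thalamus of untreated control mice of the Cbln1-EGFP/Rpl10a TRAP line NIDA030. In translating ribosome affinity purification (TRAP), the ribosomal protein Rpl10a carries a green fluorescent tag in chosen cells, here those in which the transgene named for Cbln1, a secreted organiser of synapses, is active, and tagged polysomes are pulled from a homogenate with antibodies against the tag. The 2 groups were 3 immunopurified (IP) libraries and 3 Input libraries from this same line, and the labels call the RNA of both ribosome-bound. The dissected tissue is labelled thalamus, although the deposited names carry the parafascicular nucleus, an intralaminar part of it. Nothing in the labels says how many animals stood behind a library or whether replicates came from separate animals, so the p-values speak for the spread among these libraries alone, which may be technical.

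Dopamine and noradrenaline act on receptors that cross the membrane 7 times and hand the signal to G proteins. The D1-like receptors (Drd1, Drd5) stimulate the making of cyclic AMP, the D2-like receptors (Drd2, Drd3, Drd4) inhibit it, alpha1 receptors drive phospholipase C and calcium release, and alpha2 receptors inhibit cyclic AMP. Axons from the locus coeruleus carry noradrenaline to the thalamus, where alpha1 receptors depolarise relay neurons, and dopamine axons are sparser there in rodents.

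Assigned counts ran from 45256700 to 57385828 in IP libraries and from 23929070 to 47741219 in Input libraries. Cbln1 had 1361 to 1496 CPM in IP and 68.9 to 87.2 CPM in Input, where CPM is the count scaled to library size with TMM factors. Of 12 markers of glutamatergic thalamic neurons, Cbln1 among them, 6 were higher and 3 lower in IP. Their summed levels, Cbln1 included, were 6260 to 6820 CPM in IP and 3725 to 4321 CPM in Input. The transgene is named for Cbln1, so its part in this count and sum adds no separate support. Of the markers of other cells tested, 10 of 10 for astrocytes, 10 of 10 for oligodendrocytes, 6 of 6 for oligodendrocyte precursors, 8 of 10 for microglia, 8 of 10 for habenular neurons, 8 of 11 for GABAergic neurons and 4 of 7 for ependymal and choroid plexus cells were lower in IP and 0 were higher. Of 12 for endothelial and mural cells 7 were lower and 1 was higher. Some of the lower markers, such as Cldn5 with 0 counts in IP, passed the low-count filter through Input alone. Calls of such markers could only be lower. Markers of cortical and hippocampal excitatory neurons went both ways, 3 of 9 being higher and 4 lower, with summed levels of 1104 to 1142 CPM in IP and 881.4 to 1032 CPM in Input. Beside these counts, 23.3% of all genes tested were higher and 24.3% lower. Every library differed from the others of its group by more than sampling noise.

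The pull-down changed which receptors stood out. Drd5 and Adra2a were higher in IP, and Drd1, Drd2, Adra1a and Adra1b were lower. Drd4, Adra1d and Adra2c did not pass the test, and Drd3, with no count in any IP library, fell below the low-count filter. Of the 9 genes tested, 2 were thus higher, against 23.3% of all 16898 genes tested, and 4 lower, against 24.3%. Drd1, among the lower genes, passed the low-count filter through Input alone, so its call could only be lower. In 6 of the 9 the libraries of IP and of Input had separate ranges (66.7%), a share near the 61.6% of all genes tested. IP was the higher group in 2 of these, against 27.9% of all genes, and the lower in 4, against 33.7%. The median log2 fold change, IP over Input, was -0.26 over the 9 genes and -0.07 over all genes tested. A call means a Benjamini-Hochberg adjusted p below 0.05 in edgeR's quasi-likelihood test over all genes tested. In bulk libraries, fewer cells that use a gene and less of its RNA per cell cannot be told apart.

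**Figure D1:**
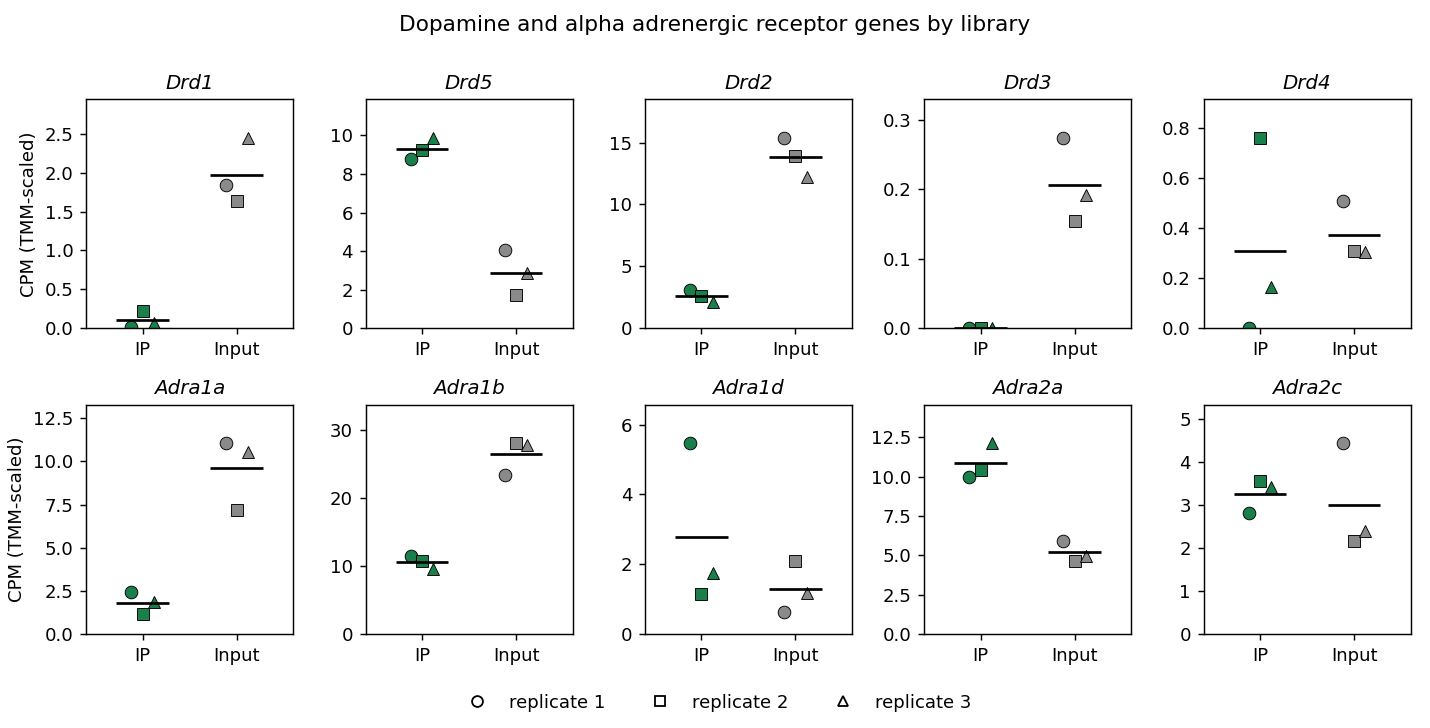
Each panel plots 1 receptor gene, with TMM-scaled CPM on a linear axis from 0, IP on the left and Input on the right. Points are single libraries with a shape for each replicate number, and lines are group means. Drd5 and Adra2a sit higher in all 3 IP libraries than in any Input library, Drd1, Drd2, Adra1a and Adra1b lower.

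Drd5, a D1-like receptor that responds to lower dopamine concentrations than Drd1, had 438, 423 and 420 counts in IP replicates 1 to 3 and 103, 90 and 150 in Input replicates 1 to 3. On the CPM scale these were 8.76, 9.22 and 9.88 in IP and 4.04, 1.73 and 2.87 in Input. The IP libraries lay close together and all above the Input libraries, which spread more. Drd5 averaged 9.29 ± 0.563 CPM in IP (SD, n = 3) and 2.88 ± 1.15 CPM in Input (SD, n = 3). Its log2 fold change was 1.70 (SE 0.33, edgeR adjusted p = 0.00261), a 3.25-fold higher level in IP. The IP and Input libraries of 1 replicate number also share a lane number in the labels, and within replicate numbers 1 to 3 the log2 ratios were 1.12, 2.41 and 1.78. Drd5 is a gene of 1 exon on the plus strand of chromosome 5 (38319367 to 38322518, mm10). The annotated antisense gene Gm26560 shares 1531 of its exonic bases. Gm26560 had no row of its own, and no source used here gives the strand setting of the counting, so that reads of the pair cannot be told apart.

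Drd1, the other D1-like receptor and the chief one of the striatum, went the opposite way. It had 1, 10 and 3 counts in IP replicates 1 to 3, against 47, 85 and 128 in Input. The highest IP library, at 0.218 CPM, stood well under the lowest Input library, at 1.64 CPM. The log2 fold change was -4.23 (SE 0.92, edgeR adjusted p = 0.00461), with averages of 0.103 ± 0.103 CPM in IP (SD, n = 3) and 1.98 ± 0.423 CPM in Input (SD, n = 3). Drd1 passed the low-count filter through Input alone, so its call could only be lower. The 14 IP counts in all leave the size of the log2 fold change poorly fixed. It was -5.39 without IP replicate 2 (adjusted p = 0.00137), -5.50 without both libraries of replicate number 2 (adjusted p = 0.0102), and -3.84 without both libraries of replicate number 3, where the call was lost (adjusted p = 0.0557). Of the 10 striatal markers, Adora2a, Gpr6 and Sh3rf2 were near 0 in both groups. They had at most 4, 3 and 0 counts in an IP library and at most 15, 15 and 11 counts in an Input library. Of the others, Syndig1l (log2 fold change 1.54) and Pde10a (0.80) were higher in IP, and Penk (-3.47) and Rgs9 (-1.07) lower. Summed levels of the 10 striatal markers ran from 259.7 to 288.3 CPM in IP and from 192.5 to 217.5 CPM in Input. The largest parts of the IP sum were Pde10a and Syndig1l. They averaged 149.2 and 55.5 CPM in IP, against 85.4 and 19.1 CPM in Input. Of 7 tested, 2 were higher and 2 lower, beside 23.3% higher and 24.3% lower of all genes tested. Their part in the Drd1 value was not tested.

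Drd2, the main D2-like receptor, which also acts as the autoreceptor of dopamine neurons, was the most abundant dopamine receptor gene of the Input. It had 156, 120 and 91 counts in IP replicates 1 to 3, against 393, 722 and 639 in Input. On the CPM scale IP held 3.12, 2.62 and 2.14, and Input held 15.4, 13.9 and 12.2. All IP libraries lay far below all Input libraries, and the lane ratios were nearly equal at -2.30, -2.41 and -2.51 on the log2 scale. The fitted log2 fold change was -2.39 (SE 0.24, edgeR adjusted p = 6.00e-05), a level 5.26-fold lower in IP, and it stayed between -2.64 and -2.25 under the 16 alternatives tried. Markers of monoaminergic neurons mostly moved the same way. Of 8 tested, 6 were lower, beside 24.3% of all genes tested, and 2 were not called. Among the 6, Slc6a4 and En1 passed the low-count filter through Input alone. With 0 counts in IP, Slc6a4 could only be called lower. Summed levels were 36.7 to 55.2 CPM in IP and 142.1 to 195.4 CPM in Input, and 2 of the 10 listed had no IP count. Th, Ddc, Dbh, Slc18a2, Slc6a2 and Slc6a3 stand both in this list and among the ligand genes. Their part in the lower Drd2 value was not tested.

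The remaining D2-like genes were rare. Drd3 had 0 counts in all 3 IP libraries and 7, 8 and 10 in Input. With a floor of 3 counts over the IP group and a pooled Input level of 0.193 CPM, Drd3 was at least 8.89-fold lower in IP. Drd4 had 0, 35 and 7 counts in IP replicates 1 to 3, against 13, 16 and 16 in Input. The IP values spanned the Input values, and the log2 fold change of -0.26 (SE 1.26, edgeR adjusted p = 0.880) had a 95% interval from -3.10 to 2.57. Single libraries set its sign: it was 0.34 without IP replicate 1 and -2.16 without IP replicate 2.

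The bases before the start of 4 receptor genes are shown because these genes are the dopamine receptors that were called and the most abundant of the 5 alpha adrenergic genes, and 1 of them was higher in IP and 3 were lower. The sequences are from RefSeq (GRCm38.p6, the build of mm10), given 5′ to 3′ on the strand of the gene and kept to bases outside the exons of GENCODE M21. The table held starts for 8 of the 10 genes. Capitals mark the GC box GGGCGG on either strand. The window of Drd5 is chr5:38319259-38319366 (plus strand, 108 bases), that of Drd1 chr13:54055706-54055908 (minus strand, 203 bases), that of Drd2 chr9:49340153-49340402 (plus strand, 250 bases) and that of Adra1b chr11:43901238-43901487 (minus strand, 250 bases).
Drd5: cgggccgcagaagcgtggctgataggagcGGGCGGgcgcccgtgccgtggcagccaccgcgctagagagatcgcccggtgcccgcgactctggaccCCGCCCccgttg
Drd1: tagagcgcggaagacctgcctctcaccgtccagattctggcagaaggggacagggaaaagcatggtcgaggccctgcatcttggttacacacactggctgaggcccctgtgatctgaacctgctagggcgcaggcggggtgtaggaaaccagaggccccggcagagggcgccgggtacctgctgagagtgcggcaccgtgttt
Drd2: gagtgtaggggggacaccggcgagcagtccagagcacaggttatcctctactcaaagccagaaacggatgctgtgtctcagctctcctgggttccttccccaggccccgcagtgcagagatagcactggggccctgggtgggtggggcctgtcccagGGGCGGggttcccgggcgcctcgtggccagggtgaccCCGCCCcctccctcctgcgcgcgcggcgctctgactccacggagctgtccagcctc
Adra1b: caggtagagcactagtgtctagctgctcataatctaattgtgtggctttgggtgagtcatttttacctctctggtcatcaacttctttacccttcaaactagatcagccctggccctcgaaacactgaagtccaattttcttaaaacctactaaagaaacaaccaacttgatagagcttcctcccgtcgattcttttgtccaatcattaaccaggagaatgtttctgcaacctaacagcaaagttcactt

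The window of Drd5, higher in IP, held 2 GC boxes, and so did that of Drd2, lower in IP. Those of Drd1 and Adra1b, both lower, held 0. A GC box stood in 11.4% of 32851 RefSeq promoter entries cut to the length of the Drd5 window, and in 32.7% at the length of the Drd2 window. Entries were cut from their upstream end, 250 bases before the RefSeq start. The Drd5 window ends directly before the GENCODE start of the gene, so the 11.4% is not matched to it in place. The share of G and C was 75.9% before Drd5, 62.6% before Drd1, 68.8% before Drd2 and 41.6% before Adra1b. Medians over all entries, cut in the same way, were 50% at 108 bases, 51.7% at 203 bases and 52.4% at 250 bases. The TATA box TATAAA, the cyclic AMP response element TGACGTCA and the E-box CACGTG, searched on both strands, had 0 matches in the 4 windows.

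**Figure D2:**
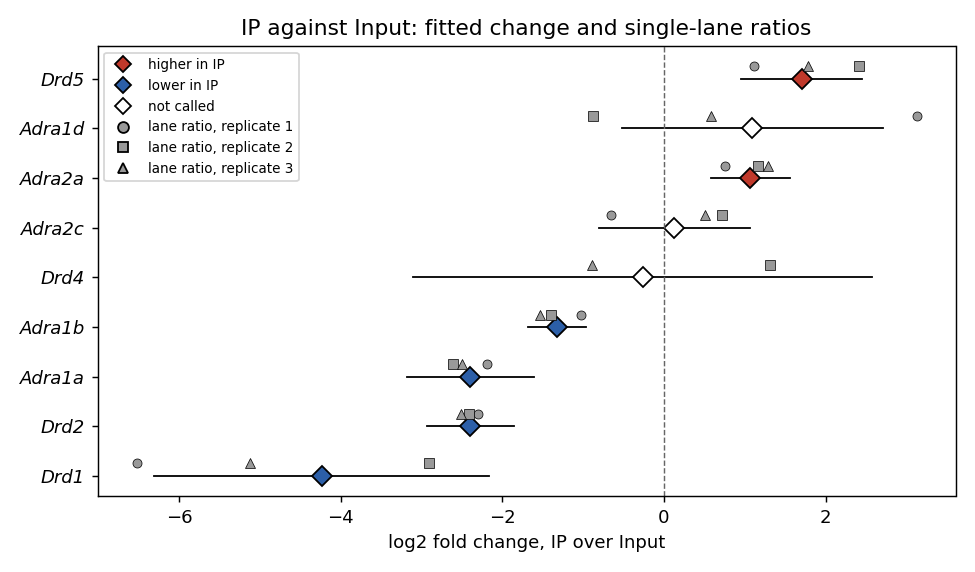
Diamonds give the fitted log2 fold change, IP over Input, of the 9 receptor genes tested, with 95% intervals as lines and small grey symbols for the log2 ratio within each lane. Drd5 and Adra2a lie to the right of 0 and Drd1, Drd2, Adra1a and Adra1b to the left in all lanes, while Adra1d, Adra2c and Drd4 have lanes on both sides.

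Among alpha1 receptors, Adra1b was the most abundant in both groups. It had 573, 489 and 408 counts in IP replicates 1 to 3, against 598, 1456 and 1451 in Input. On the CPM scale these were 11.5, 10.7 and 9.60 in IP and 23.4, 28.03 and 27.8 in Input, without overlap. Its log2 fold change was -1.32 (SE 0.16, edgeR adjusted p = 1.73e-04), a level 2.50-fold lower in IP, with lane ratios of -1.03, -1.40 and -1.53. The gene lies on the minus strand of chromosome 11 (43774606 to 43901210, mm10). A level of 10.6 ± 0.935 CPM in IP (SD, n = 3) was nevertheless above that of Drd1, Drd2, Drd3 and Drd4 in the same libraries also when set per length.

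Adra1a had 121, 54 and 79 counts in IP replicates 1 to 3, against 282, 373 and 551 in Input. It averaged 1.82 ± 0.623 CPM in IP (SD, n = 3) and 9.59 ± 2.10 CPM in Input (SD, n = 3), and the groups did not overlap. The log2 fold change of -2.39 (SE 0.35, edgeR adjusted p = 5.32e-04) matched that of Drd2 in size. Summed astrocyte markers were 658.2 to 699.4 CPM in IP and 1534 to 1625 CPM in Input, and summed GABAergic markers 63.0 to 84.3 CPM in IP and 524.7 to 768.8 CPM in Input. Their part in the lower Adra1a and Adra1b values was not tested.

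Adra1d, the third alpha1 receptor, behaved differently between libraries. It had 273, 52 and 74 counts in IP replicates 1 to 3, against 16, 108 and 61 in Input. IP replicate 1 alone, at 5.46 CPM, rose above the highest Input library, at 2.08 CPM. The log2 fold change of 1.09 (SE 0.71, edgeR adjusted p = 0.236) had a 95% interval from -0.52 to 2.70. It was 0.15 without IP replicate 1 and -0.17 without both libraries of replicate number 1, and the lane ratios were 3.12, -0.88 and 0.58. The antisense gene Gm14285 shares 147 of its exonic bases in the annotation and had no row of its own.

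The alpha2 receptors act on axon terminals and cell bodies to dampen release and firing. Adra2a, also the autoreceptor of noradrenaline neurons, had 500, 478 and 515 counts in IP replicates 1 to 3, against 151, 242 and 260 in Input. On the CPM scale IP held 10.01, 10.4 and 12.1, and Input held 5.92, 4.66 and 4.98, so that the lowest IP library stood above the highest Input library. Its log2 fold change was 1.07 (SE 0.22, edgeR adjusted p = 0.00341), a 2.10-fold higher level in IP, and lane ratios were 0.76, 1.16 and 1.28. Adra2a is a gene of 1 exon on the plus strand of chromosome 19 (54044151 to 54048982, mm10), with no annotated gene overlapping it.

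Adra2c, its relative, had 140, 163 and 145 counts in IP replicates 1 to 3, against 113, 112 and 125 in Input. It averaged 3.26 ± 0.3995 CPM in IP (SD, n = 3) and 2.99 ± 1.25 CPM in Input (SD, n = 3), and Input replicate 1, at 4.43 CPM, lay above every IP library. Its log2 fold change was 0.13 (SE 0.42, edgeR adjusted p = 0.821), with a 95% interval from -0.81 to 1.06. The sign turned to -0.054 without Input replicate 2 and -0.0079 without Input replicate 3, and to -0.051 under upper-quartile scaling and -0.10 under library totals.

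Levels of different genes were set side by side only as CPM per kb of merged exon. In IP the order was Adra1b (3.13 ± 0.277), Drd5 (2.95 ± 0.179), Adra2a (2.24 ± 0.232), Adra1d (1.46 ± 1.23), Drd2 (1.03 ± 0.192), Adra2c (0.945 ± 0.116), Adra1a (0.208 ± 0.0714), Drd4 (0.0915 ± 0.119), Drd1 (0.0284 ± 0.0284) and Drd3 at 0 (SD, n = 3). Neighbours in this order overlapped, except Drd5 over Adra2a, Adra2c over Adra1a and Drd1 over Drd3. In Input, Adra1b (7.81 ± 0.765) and Drd2 (5.43 ± 0.622) stood apart from each other and from the rest. Adra1a (1.10 ± 0.241), Adra2a (1.07 ± 0.135), Drd5 (0.914 ± 0.365), Adra2c (0.868 ± 0.362), Adra1d (0.680 ± 0.387) and Drd1 (0.545 ± 0.117) followed, each overlapping the next. Drd3 (0.121 ± 0.0359) and Drd4 (0.111 ± 0.0345) came last, below Drd1 without overlap. Drd5 thus ranked 2 in IP and 5 in Input, and Drd2 ranked 5 in IP and 2 in Input. With the longest transcript in place of merged exons, only Drd3 and Drd4 in Input changed places.

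**Figure D3:**
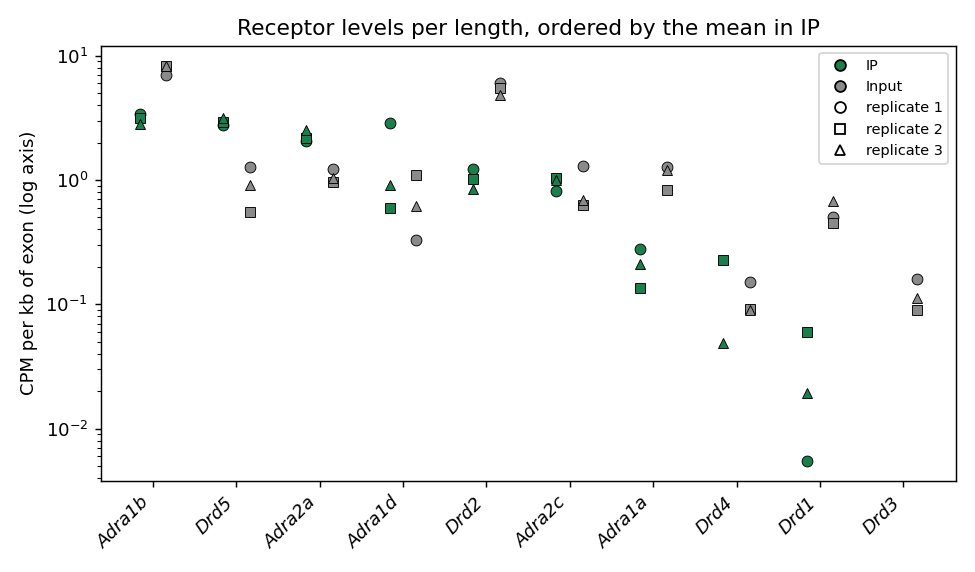
CPM per kb of merged exon is plotted on a log axis for the 10 receptor genes, ordered by their mean in IP, with IP left of Input for each gene and a shape for each replicate number. Values of 0 are not drawn, which leaves out Drd3 in IP and Drd4 in IP replicate 1. Adra1b leads in both groups, at 3.13 in IP and 7.81 in Input.

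The make-up of the dopamine receptor family differed between the groups. Drd5 made up 69.3, 69.0 and 77.5% of the summed CPM per kb of the 5 genes in IP replicates 1 to 3, and 15.7, 8.28 and 13.8% in Input replicates 1 to 3. Drd2 made up 30.6, 24.2 and 20.8% in IP and 74.2, 82.2 and 72.9% in Input. Stimulatory D1-like genes thus held 72.6 ± 4.68% of the family in IP (SD, n = 3) and 20.4 ± 4.70% in Input (SD, n = 3). Drd5 alone averaged 72.0% in IP and 12.6% in Input. Its reads cannot be told apart from those of the antisense gene Gm26560, which limits its levels, ranks and shares alike. The summed level of the family was 4.10 ± 0.122 CPM per kb in IP and 7.12 ± 0.883 CPM per kb in Input.

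Among the 5 alpha genes, Adra1b held the largest mean share in both groups, with 39.5 ± 4.498% in IP and 67.6 ± 4.196% in Input. Adra2a held 28.7 ± 6.02% in IP (SD, n = 3) and 9.34 ± 1.55% in Input (SD, n = 3). Adra1d ranged from 8.44 to 30.5% in IP, the top value being that of replicate 1, and from 2.99 to 9.28% in Input. The alpha2 genes together made up 40.8 ± 8.92% in IP and 17.0 ± 5.04% in Input, and Adra2b, which is described with the other adrenergic receptors, was not among them.

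**Figure D4:**
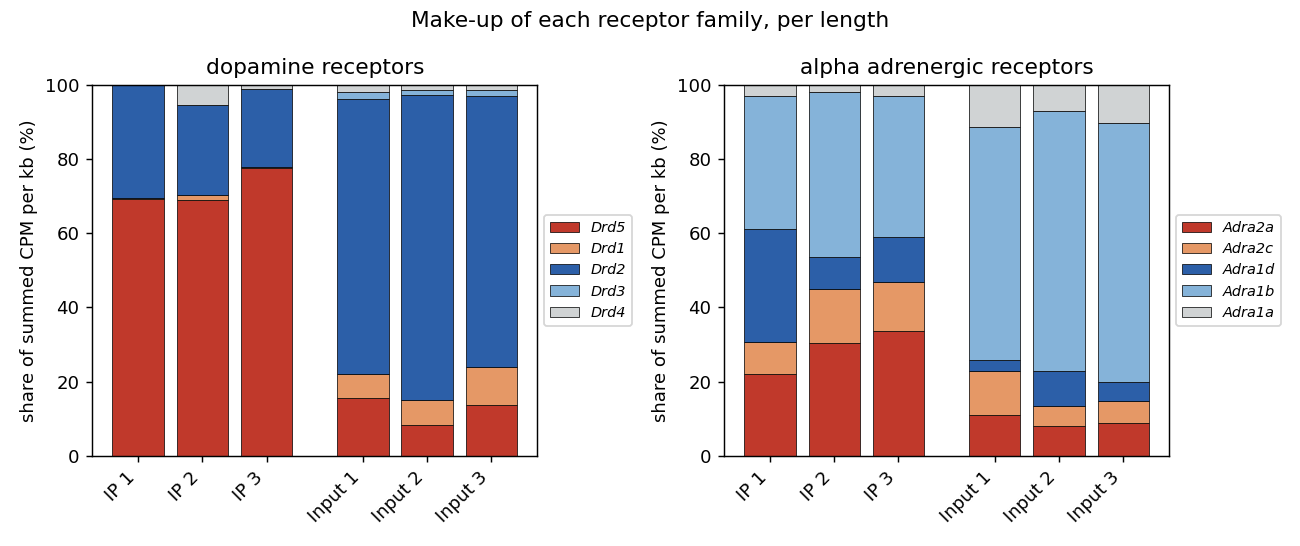
Stacked bars give the share of each receptor gene in the summed CPM per kb of its family, in percent, for each library, with IP on the left of each panel and Input on the right. Drd5 holds 69.0 to 77.5% of the dopamine receptor sum in IP and 8.28 to 15.7% in Input.

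Among adrenergic receptor genes outside the 10, Adra2b, the third alpha2 receptor, had 133, 214 and 241 counts in IP replicates 1 to 3, against 246, 759 and 578 in Input, and was lower in IP (log2 fold change -1.45, SE 0.31, edgeR adjusted p = 0.00464), opposite to Adra2a. Adrb1, the main beta receptor of the brain, which stimulates cyclic AMP, had 12.5 CPM in IP and 10.9 CPM in Input (log2 fold change 0.20, SE 0.19, edgeR adjusted p = 0.408). Adrb3 had 0, 91 and 2 counts in IP, against 13, 36 and 21 in Input, and 1 library decided its value: the log2 fold change was 0.34 with all libraries (adjusted p = 0.870) and -4.42 without IP replicate 2 (adjusted p = 0.0191). Adrb3 shares 839 exonic bases with the antisense gene Gm45470.

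Genes that make and carry the ligands were mostly lower in IP. Of 11 measured, 8 passed the low-count filter and 5 were lower, beside 24.3% of all genes tested, with a median log2 fold change of -1.38. Slc6a3, the dopamine transporter that marks dopamine neurons, had 171, 69 and 38 counts in IP replicates 1 to 3, against 893, 1480 and 2169 in Input. Its log2 fold change was -4.16 (SE 0.43, edgeR adjusted p = 6.82e-05), and it was -4.85 without IP replicate 1 or without both libraries of that number. The synthesis enzymes Th (log2 fold change -1.90, SE 0.19) and Ddc (-2.74, SE 0.35) fell too, as did Slc18a2 (-0.86, SE 0.18), which loads monoamines into vesicles. Gch1, which makes the cofactor of tyrosine hydroxylase, had 29, 8 and 0 counts in IP and 111, 202 and 320 in Input (log2 fold change -4.21, SE 0.98, edgeR adjusted p = 0.00639). It passed the low-count filter through Input alone. Gch1 moved to -5.69 without IP replicate 1, -5.77 without replicate number 1, -5.38 with limma-voom and -3.42 without replicate number 3, and missed the threshold without replicate number 2 (adjusted p = 0.0511). Slc18a2 missed it without replicate number 3 (adjusted p = 0.0606).

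Genes particular to noradrenaline cells were near absent. Dbh, the enzyme that turns dopamine into noradrenaline, had 0 counts in all IP libraries and 3, 9 and 0 in Input, and the noradrenaline transporter Slc6a2 had 0, 0 and 3 in IP and 0, 0 and 1 in Input. Pnmt, the adrenaline-making enzyme, had 0 counts in all 6 libraries. The monoamine oxidases, breakdown enzymes that many cells use, did not pass the test, with 48.9 CPM in IP and 47.8 CPM in Input for Maoa (edgeR adjusted p = 0.860) and 30.5 CPM in IP and 34.2 CPM in Input for Maob (0.384).

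G protein alpha subunits, to which the receptors pass the signal, were higher in IP in 6 of 10 genes and lower in 1, beside 23.3% higher and 24.3% lower of all genes tested, with a median log2 fold change of 0.54. The stimulatory subunits Gnal (log2 fold change 1.49, SE 0.09) and Gnas (1.15, SE 0.07), which serve D1-like receptors, had the largest rises of the list. Gnal had 2098 CPM in IP and 746.2 CPM in Input. The inhibitory subunits Gnaz (0.96), Gnao1 (0.73) and Gnai2 (0.56) also rose, as did Gna11 of the Gq class (0.52). Gnaq (0.11, edgeR adjusted p = 0.302) did not pass. Nor did the inhibitory subunits Gnai1 (-0.17, edgeR adjusted p = 0.154) and Gnai3 (-0.40, edgeR adjusted p = 0.0852). Gna14 was lower, with 0 counts in IP and 8, 15 and 19 in Input. It passed the low-count filter through Input alone, so a call could only be lower. Reads of Gnas cannot be split among the overlapping transcripts of its locus.

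Of 23 cyclases, phospholipases and cyclic AMP effectors, 7 were higher and 3 lower in IP, not far from the 23.3% and 24.3% of all genes tested, and the median log2 fold change of 0.09 was near the -0.07 of all genes. The cyclase Adcy2 (1.14, SE 0.19) and the protein kinase A subunit Prkaca (1.03, SE 0.07) rose most. Adcy5, the cyclase prominent in striatum, rose by 0.51 (SE 0.12), and Ppp1r1b, the dopamine-regulated phosphatase inhibitor DARPP-32, had 23.8 CPM in IP and 25.5 CPM in Input (edgeR adjusted p = 0.693). The phospholipases Plcb2 (-5.46, SE 1.25) and Plcb3 (-2.33, SE 0.72) fell. Plcb2 had 0, 3 and 0 counts in IP and passed the low-count filter through Input alone, so a call could only be lower. Its log2 fold change was -8.58 without IP replicate 2, -8.70 without replicate number 2, -4.77 without replicate number 1 and -4.86 without replicate number 3. Plcb3 moved to -3.65 without IP replicate 3, -3.66 without replicate number 3, -1.72 without replicate number 2 and -2.95 with limma-voom. Its adjusted p was 0.0574 without IP replicate 2, 0.0988 without Input replicate 2, 0.0612 without Input replicate 3, 0.0526 without replicate number 1 and 0.184 without replicate number 2, each above the threshold.

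Receptor kinases, arrestins and partners were higher in 9 of 16 genes and lower in 1, beside the same 23.3% and 24.3%, with a median log2 fold change of 0.37. Rgs2, which switches off Gq signals, rose by 1.81 on the log2 scale (SE 0.11), to 279.6 CPM in IP, against 80.0 CPM in Input. The receptor kinase Grk2, listed as Adrbk1, rose by 1.03 (SE 0.11), and Caly, a protein described as a D1 receptor partner, rose by 0.77 (SE 0.11). Rgs9, which speeds the end of D2 signals in striatum, fell by 1.07 (SE 0.19). Rgs9 and Ppp1r1b are also among the striatal markers. Adjusted p of these 4 genes in edgeR's test lay between 5.07e-06 (Rgs2) and 0.00167 (Rgs9).

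**Figure D5:**
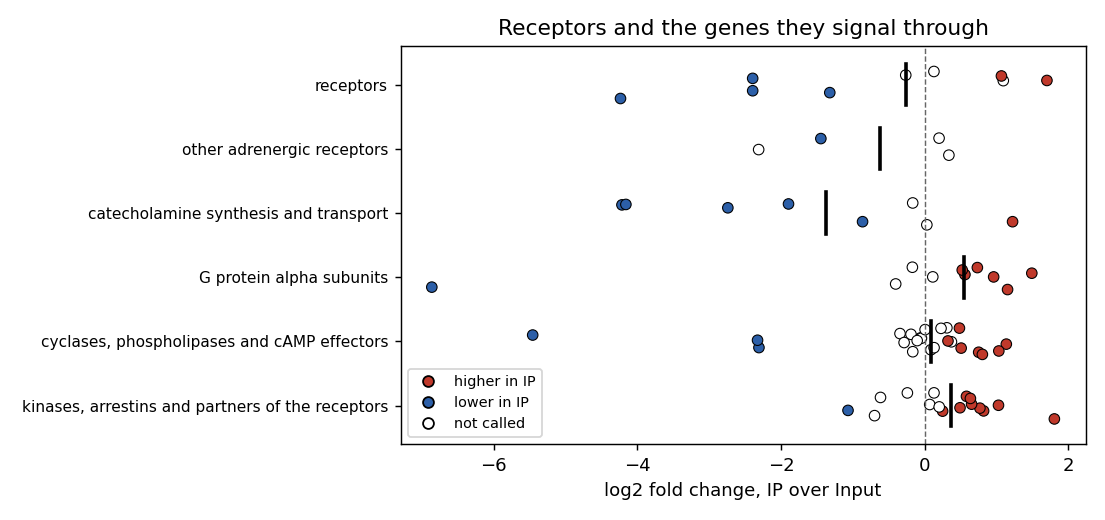
Points are log2 fold changes, IP over Input, of the tested genes of each list, filled where the gene was called, and bars are the medians. Receptors and ligand genes spread to both sides of 0, with medians of -0.26 and -1.38, and G protein subunits have a median of 0.54.

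The genes with the closest profile over the 6 libraries were found by the root mean square difference in centred log2 CPM among 13906 genes. For Drd5 they were Fndc1 (0.228), the glycine receptor subunit gene Glra3 (0.233) and Fndc9 (0.269). Adra2a lay closest to Ostc (0.0365), Ufsp1 (0.0501) and Ube2e2 (0.0708), and Adra1b to Nrn1 (0.0298), Triobp (0.0696) and Numa1 (0.0812). For Drd2 they were Metrn (0.106), Cald1 (0.106) and Pdlim2 (0.132), and for Drd1, at a greater distance, Cldn10 (0.262), Rasa4 (0.271) and Daam2 (0.276). Adra1a lay near Plch1 (0.157) and Stac2 (0.173), Adra2c near Kcnh2 (0.167), P4htm (0.167) and BC017158 (0.174), and Adra1d, the most distant, near 5830415F09Rik (0.329) and Asb18 (0.436). The distance measures likeness over 3 IP and 3 Input libraries.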

How the data were processed

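The authors deposited whole-number read counts for each gene of 3 IP and 3 Input libraries, with no normalization. STAR 2.0.0e, HTSeq and the build mm10 are named per the submitters' processing notes. No version of HTSeq, strand setting or annotation is given in the sources used here. Beside 32531 named genes, 6 lines were tied to no gene (53.2 to 59.8% of all lines' counts) and stayed out of library sizes and tests. With no filter for ribosomal RNA, its precursor Rn45s held 9.38 to 14.5% of assigned counts in IP and 5.21 to 5.40% in Input.

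Groups came from the titles. In R 4.3.3 and edgeR 4.0.16, genes passing filterByExpr (minimum count 10) were scaled by TMM and tested by the robust quasi-likelihood F-test, without a replicate block, with Benjamini-Hochberg adjustment over all genes tested (threshold 0.05). Standard errors came from the F statistic, and 95% intervals from its degrees of freedom. Scripts were tested on simulated data. Alternatives were other filters, upper-quartile scaling, library totals, DESeq2 1.42.0, limma-voom (limma 3.58.1), the replicate block and left-out libraries. Exon lengths and positions are from GENCODE M21 (mm10), and promoters from RefSeq.

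The receptor genes, lists and rules were chosen with earlier results of these data known. Named genes were the 10 receptors, other adrenergic and ligand genes (some are not reported here), of each other list the 2 most changed called genes in each direction with at least 1 CPM in a group, and for receptors of at least 1 CPM the 3 closest profiles (log2 of CPM plus 0.05). Gnaz, Gnao1, Gnai1, Gnai2, Gnai3, Gna11, Gnaq, Gna14, Adcy5, Ppp1r1b, Caly, Adora2a, Gpr6, Sh3rf2, Slc6a4, Cldn5 and Ttr were named after their values were seen. Transcripts known only by a sequence identifier are left out, and cell type lists are given mostly by counts and sums. Intervals and floors cover the error between these libraries or of counting only.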

Additional observations from a re-analysis of the deposited data

How the results depend on the processing

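Drd5 and Adra2a stayed called higher, and Drd2, Adra1a and Adra1b lower, under all 16 alternatives. Drd1 lost its call in 1, without both libraries of replicate number 3 (adjusted p = 0.0557, log2 fold change between -5.50 and -3.73 over its alternatives). Drd3 could be tested without the low-count filter, where it was called lower (5 receptor genes lower in all), as it was without any 1 IP library or without Input replicate 2. With 0 counts in every IP library, Drd3 entered these tests through Input alone. Its calls could therefore only be lower and add no support. Calls over all genes depended on scaling: 3930 were higher with TMM and 2458 with library totals, and the share of calls that were higher was 48.9% with TMM, 36.7% with upper-quartile scaling and 31.9% with library totals. Against TMM, upper-quartile scaling moved the median gene by -0.18 and library totals by -0.24, less than the change of each called receptor. As libraries were left out, the genes called higher ranged from 2659 to 4392 and those called lower from 3017 to 5066, the receptors called higher stayed at 2, and those called lower ranged from 3 to 5. Same-numbered IP and Input libraries share a lane in the labels. Their deviations from group means correlated at 0.105, 0.0421 and 0.0336, beside -0.0686 to 0.035 between different numbers. Weak correlations over all genes cannot settle whether the samples are paired. The choroid plexus marker Ttr was low in replicate 1 of both groups, at 0 CPM in IP and 2.78 in Input. In replicates 2 and 3 it had 40.6 and 35.1 CPM in IP and 477.2 and 541.9 in Input. The main test had no replicate block. With the replicate block, 3793 genes were higher and 4038 lower, with 2 receptors higher and 4 lower.

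Signs turned only for genes that were not called with all libraries. Over left-out libraries, Drd4 ranged from -2.28 to 0.60, Adra1d from -0.17 to 1.9996, Adra2c from -0.12 to 0.62, Adrb3 from -4.42 to 0.93, Maoa from -0.095 to 0.15, Maob from -0.28 to 0.0033, Asb18 from -0.026 to 1.43 and BC017158 from -0.053 to 0.70, these last 2 close to Adra1d and Adra2c in profile. Under library totals Adra2c was -0.10, Adrb1 -0.034, Maoa -0.21 and Kcnh2, close to Adra2c in profile, -0.045. Under upper-quartile scaling Adra2c was -0.051 and Maoa -0.15. Maoa was -0.0095 under the stricter filter and -0.013 with DESeq2, and Adrb3 was -2.39 with limma-voom and -2.24 with the replicate block. The cause was not tested. Depth limits Drd1, Drd3 and Drd4, which had under 50 counts in each IP library.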
